A study of Arabidopsis thaliana with 28 samples.

Results

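Hypocotyls, the embryonic stems of seedlings, were compared after 30 min of light and in darkness. The comparison rests on 4 of 28 poly(A) RNA-seq libraries of Arabidopsis thaliana (ecotype Columbia, genotype Col-0, the labels naming no other allele): the pair of hypocotyl libraries taken after 30 min of light and the pair taken in darkness, chosen by the tissue and time in their column names. All seedlings were germinated after 1 h of white light and then kept in darkness for 3 days. The light groups were moved to LED light that imitated white light (blue, red and a little far-red), with an intensity of 100 µmol m−2 s−1, and stayed there from 15 min up to 12 h, with the samples at 15 min, 30 min and 1 h used here. The dark groups were not moved and were collected under a green safe light. Roots were cut off, seedlings were fixed in cold acetone, and the hypocotyls were dissected from the cotyledons, which kept the shoot apex. Each of the 14 groups (both tissues, 7 conditions) holds 2 biological replicates, A and B. The sources used here do not give how many seedlings were pooled in a library, and no dark library was matched to 30 min, so that light cannot be told apart from handling or from the passage of time.

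In darkness a seedling elongates its hypocotyl and holds back greening. Light perceived by phytochromes and cryptochromes then inactivates the COP1-SPA ubiquitin ligase, which lets the bZIP factor HY5 accumulate, and removes the PIF factors that drive elongation genes. In hypocotyls, the elongation genes under PIF and auxin control include the SAUR genes, whose small proteins promote cell expansion, and light is known to slow hypocotyl growth within minutes.

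Levels were measured as FPKM, fragments scaled to transcript length and library size, for 33557 genes. Of these, 18678 averaged 1 FPKM or more across all 28 libraries and were tested with limma on log2(FPKM + 1), a scale that understates changes of weakly expressed genes. A gene is said to have risen or fallen where the Benjamini-Hochberg adjusted p was under 0.05 and the log2 change was at least 1. All p-values and standard errors (SE) below come from that fit over all 28 libraries, and all pairs of values are in the order replicate A, replicate B.

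Depth had to be read from the steps between low FPKM values. Relative to an average library, the hypocotyl libraries stood at 1.09 and 0.808 in darkness and 0.737 and 1.01 after 30 min, and those at 1 h were deeper, at 1.38 and 1.72 (range over the series 0.614 to 1.72). One FPKM of a gene of 1500 nt was worth about 18.8 and 14.02 reads in the dark libraries and 12.8 and 17.5 reads in the 30 min libraries. Replicates had a Pearson correlation across genes of 0.979 in darkness and 0.974 at 30 min. Markers of the endodermis, which lies inside the hypocotyl, were high. Those of the root and, apart from AS1, of the shoot apex, which dissection should have removed, were low. Markers of the stomatal lineage and of seed storage, which do not bear on the dissection in the same way, were low too. The 5 endodermis markers summed to 2329 and 2494 FPKM in the dark hypocotyl libraries and to 1951 and 2028 at 30 min, against 2.46 to 7.24 in cotyledon libraries. The 7 shoot apex markers summed to 20.5 to 23.5 FPKM in the 4 hypocotyl libraries and 113 to 224 in cotyledon libraries, with AS1 holding nearly all of it, 3 markers (CLV3 among them) at 0 and 6 under 1 FPKM in the hypocotyl libraries. The 7 stomatal lineage markers summed to 1.53 to 2.12 FPKM, against 43.7 to 60.4 in cotyledons. The 7 root hair and root tip markers reached at most 0.614 FPKM and the 6 seed storage markers at most 1.31 FPKM. Of the 8 marker lists, those of root and of seed storage had 0 markers that passed the filter on low levels. The others had 3 (shoot apex), 7 (stomatal lineage), 5 (endodermis), 6 (xylem), 4 (phloem) and 5 (epidermis) tested markers. None of these was called at 30 min (0 higher, 0 lower). With 3.6% of all genes called, no call among so few markers is close to that share. In whole hypocotyls, fewer cells of a type and less RNA per cell cannot be told apart.

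After 30 min of light, 673 genes differed from darkness in hypocotyls, 3.6% of those tested. Of these 329 rose (1.76%) and 344 fell (1.84%), so that rises and falls were about equal in number. At an adjusted p under 0.05 with no limit on the change the number was 2098. In each of the 673 called genes both 30 min libraries lay on one side of both dark libraries. The median absolute log2 change of the called genes was 1.46, while the median change over all genes tested was -0.00162. The 12 highest held 3 B-box genes (BBX30, BBX31 and BBX32), and the 12 lowest held 4 SAUR genes (SAUR22, SAUR10, SAUR9 and SAUR65).

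**Figure D1:**
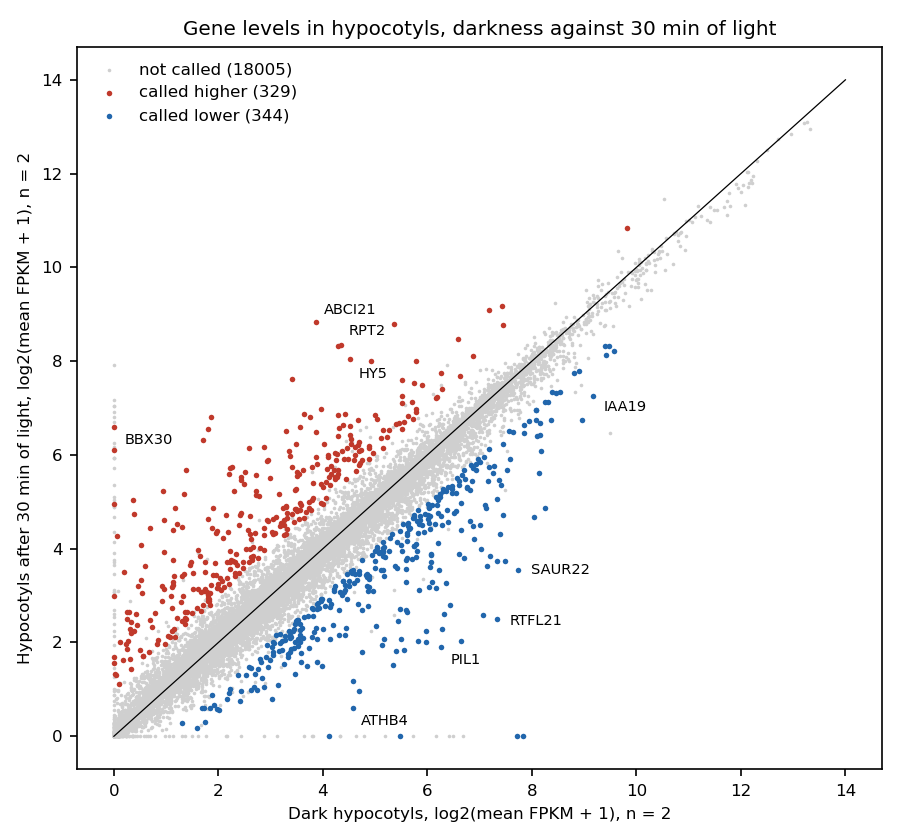
Each point is one tested gene, with its mean level in dark hypocotyls on the x axis and after 30 min of light on the y axis, both as log2(FPKM + 1) with n = 2, and the line marks equal levels. Red points are the 329 called higher and blue points the 344 called lower. ABCI21 and RPT2 stand well above the line, while SAUR22, RTFL21 and PIL1 lie far below the line.

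Among nuclear protein-coding genes with 500 nt or more of exons, the highest rise was that of BBX30 (AT4G15248), which encodes a small B-box protein. It was listed at 0 in both dark libraries and stood at 68.2 and 67.6 FPKM after 30 min, so that no fold is given (difference on the log2 scale with the pseudocount 6.11, SE 0.339, adjusted p = 6.15e-10). Its close relative BBX31 (AT3G21890) stood at 0.873 and 0.976 FPKM in darkness and 36.8 and 36.6 FPKM after 30 min (log2 change 4.29, SE 0.188, adjusted p = 7.94e-13). ABCI21 (AT5G44110), a soluble member of the ABC protein family, was at 11.8 and 15.4 FPKM in darkness and 486 and 424 FPKM after 30 min (log2 change 4.97, SE 0.124, adjusted p = 4.74e-16). The replicates of each group lay close together and the groups were far apart in BBX30, BBX31 and ABCI21. ABCI20 (AT5G02270), the nearest relative of ABCI21, showed the same pattern at 18.4 and 20.6 FPKM in darkness and 333 and 318 FPKM after 30 min (log2 change 3.997, SE 0.1202, adjusted p = 3.85e-15).

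Plastid and metabolic genes filled other places among the 12 highest. ELIP1 (AT3G22840), an early light-induced chlorophyll-binding protein of thylakoids, was at 2.14 and 2.87 FPKM in darkness and 100.3 and 84.7 FPKM after 30 min (log2 change 4.74, SE 0.391, adjusted p = 2.37e-07). SIG5 (AT5G24120), a sigma factor that directs the plastid RNA polymerase, was at 0.285 and 0.335 FPKM in darkness and 25.6 and 25.7 FPKM after 30 min (log2 change 4.35, SE 0.134, adjusted p = 4.93e-15). Both dark libraries of SIG5 were thus under 1 FPKM while both 30 min libraries were above 25. AT5G15950, annotated as an adenosylmethionine decarboxylase, an enzyme of polyamine synthesis, was at 1.96 and 2.58 FPKM in darkness and 81.3 and 77.3 FPKM after 30 min (log2 change 4.62, SE 0.127, adjusted p = 1.73e-15). RPT2 (AT2G30520), a partner of the phototropin blue-light receptors, was at 15.5 and 21.7 FPKM in darkness and 319.8 and 322 FPKM after 30 min (log2 change 4.06, SE 0.137, adjusted p = 1.01e-14). The others were BBX32 (log2 change 4.22), AT3G56290 (4.301), F3H (4.68) and AT3G02910 (4.23). F3H, an enzyme of flavonoid synthesis, overlaps another annotated gene over 93.8% of its exons and AT3G02910 over 100%, and no source used here says if reads were assigned by strand, so that the levels of these genes are uncertain.

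Among the 12 lowest were small polypeptide, homeodomain and SAUR genes. RTFL18 and RTFL21 belong to the ROTUNDIFOLIA-like family of small polypeptides, which shorten organs when overproduced. RTFL21 (AT1G67265) was at 149.9 and 169 FPKM in darkness and 4.45 and 4.88 FPKM after 30 min (log2 change -4.82, SE 0.269, adjusted p = 4.88e-11). RTFL18 (AT5G16023) was at 64.99 and 21.8 FPKM in darkness and listed at 0 in both 30 min libraries (adjusted p = 0.0134). The dark replicates of RTFL18 differed from each other, and its call was lost without either 30 min library or without dark replicate A (difference -4.51 on the log2 scale with the pseudocount in the last case). ATHB2 (AT4G16780) and ATHB4 (AT2G44910) encode homeodomain-leucine zipper factors of the shade response. ATHB2 was at 127 and 139.6 FPKM in darkness and 5.45 and 4.65 FPKM after 30 min (log2 change -4.47, SE 0.151, adjusted p = 1.01e-14). ATHB4 was at 21.9 and 23.8 FPKM in darkness and 0.237 and 0.779 FPKM after 30 min (log2 change -4.01, SE 0.1995, adjusted p = 6.14e-12). PIL1 (AT2G46970), a bHLH gene that PIFs activate, was at 70.4 and 80.1 FPKM in darkness and 2.296 and 3.16 FPKM after 30 min (log2 change -4.36, SE 0.144, adjusted p = 8.68e-15). In all 3 of these genes the lower dark library was more than 20 times the higher 30 min library.

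The other genes in that set were SAUR22 (log2 change -4.19), SAUR10 (-3.99), SAUR9 (-3.81), SAUR65 (-3.79), PRE1 (-3.75), AT1G54120 (-3.95), whose product is uncharacterised, and AT5G14360 (-3.75), annotated as a ubiquitin-like protein. SAUR22 was at 198 and 228 FPKM in darkness and 11.3 and 10.101 FPKM after 30 min and PRE1, an atypical helix-loop-helix protein that promotes elongation, at 57.02 and 66.1 FPKM in darkness and 2.86 and 4.57 FPKM after 30 min. Over the annotated families, which were counted after the largest changes were seen, 33 of 60 tested genes with a SAUR-like product fell and 0 rose (78 in the table, median -1.53). Of the DVL and RTFL small-polypeptide genes, 9 of 16 tested fell and 0 rose (23 in the table, median -2.11).

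The promoters of the pair of genes with the highest rise and the pair with the largest fall are shown, with those of ELIP1 and F3H, which were added after matches had been counted because they and BBX30 were the 3 of the 12 highest genes that hold a G-box. Each runs 5′ to 3′ on the gene's own strand from 250 bases before the annotated start to 50 bases after it (RefSeq, TAIR10.1). Capitals mark matches, on either strand, of the G-box CACGTG, the evening element core AATATCT, the I-box GATAAG and a TCP-type element GGCCCA, none of which overlapped another in these 6 sequences. BBX30 lies at chr4:8708591-8708890 (plus strand), ABCI21 at chr5:17755719-17756018 (minus), ELIP1 at chr3:8085620-8085919 (minus), F3H at chr3:19024942-19025241 (plus), RTFL18 at chr5:5232987-5233286 (minus) and RTFL21 at chr1:25176181-25176480 (minus).
BBX30: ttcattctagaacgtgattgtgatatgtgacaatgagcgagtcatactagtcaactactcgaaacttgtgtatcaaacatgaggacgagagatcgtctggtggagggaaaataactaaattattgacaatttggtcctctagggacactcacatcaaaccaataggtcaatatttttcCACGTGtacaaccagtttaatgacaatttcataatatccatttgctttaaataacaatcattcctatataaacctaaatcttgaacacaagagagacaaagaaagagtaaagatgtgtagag
ELIP1: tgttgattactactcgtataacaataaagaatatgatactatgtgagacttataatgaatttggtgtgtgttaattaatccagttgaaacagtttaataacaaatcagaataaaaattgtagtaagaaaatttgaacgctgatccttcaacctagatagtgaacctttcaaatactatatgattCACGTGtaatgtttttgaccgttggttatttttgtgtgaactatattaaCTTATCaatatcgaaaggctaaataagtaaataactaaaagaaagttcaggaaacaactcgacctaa
F3H: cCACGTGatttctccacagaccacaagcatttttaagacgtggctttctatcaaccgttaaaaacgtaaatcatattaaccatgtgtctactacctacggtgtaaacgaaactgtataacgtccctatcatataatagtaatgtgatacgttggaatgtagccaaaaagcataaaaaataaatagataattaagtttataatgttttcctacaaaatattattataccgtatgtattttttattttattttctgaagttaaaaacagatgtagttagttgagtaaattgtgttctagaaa
ABCI21: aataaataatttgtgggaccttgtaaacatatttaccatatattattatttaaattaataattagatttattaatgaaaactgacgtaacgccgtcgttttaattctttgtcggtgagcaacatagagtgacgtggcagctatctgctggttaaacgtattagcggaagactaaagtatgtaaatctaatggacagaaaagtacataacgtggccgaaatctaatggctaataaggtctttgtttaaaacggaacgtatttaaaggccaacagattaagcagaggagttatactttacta
RTFL18: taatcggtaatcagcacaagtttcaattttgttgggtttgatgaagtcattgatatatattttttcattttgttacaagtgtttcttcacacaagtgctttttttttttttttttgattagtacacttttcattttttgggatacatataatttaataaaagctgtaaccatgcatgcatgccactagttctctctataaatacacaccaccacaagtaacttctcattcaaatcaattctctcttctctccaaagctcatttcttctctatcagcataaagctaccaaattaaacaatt
RTFL21: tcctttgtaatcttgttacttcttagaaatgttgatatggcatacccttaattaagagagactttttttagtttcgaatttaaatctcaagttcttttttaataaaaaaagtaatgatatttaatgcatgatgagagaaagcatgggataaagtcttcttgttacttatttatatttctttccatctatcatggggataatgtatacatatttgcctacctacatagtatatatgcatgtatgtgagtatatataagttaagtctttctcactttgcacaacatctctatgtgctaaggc
The G-box is a site that HY5 and PIF proteins are known to bind. Counted from the annotated start, its first base lies at position -72 in BBX30 and -66 in ELIP1, and in F3H it lies at the upstream end of the window, while ELIP1 also holds an I-box on the minus strand at -17. None of the 4 motifs occurs in these windows of ABCI21, RTFL18 or RTFL21. The G-box was found in 69 of the 322 promoters of genes that rose (21.4%), in 34 of the 337 of genes that fell (10.09%), in 8.96% of the 17905 tested genes with a promoter and in 7.68% of all 27443 promoters. The evening element core was found in 18.0% of the risen, 14.2% of the fallen, 11.8% of the tested and 11.5% of all promoters, and the I-box in 18.0%, 18.4%, 15.2% and 14.6%. The TCP-type element was found in 12.4% of the risen, 6.82% of the fallen, 19.6% of the tested and 15.5% of all promoters. These counts are descriptions of letters in a window.

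The 24 gene lists used below held 355 genes, of which 339 passed the filter on low levels. They were drawn up with earlier results of these data known, so that their counts describe them and are no independent support. The share to set beside each count at 30 min against darkness is that over all genes tested, 1.76% higher and 1.84% lower.

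**Figure D2:**
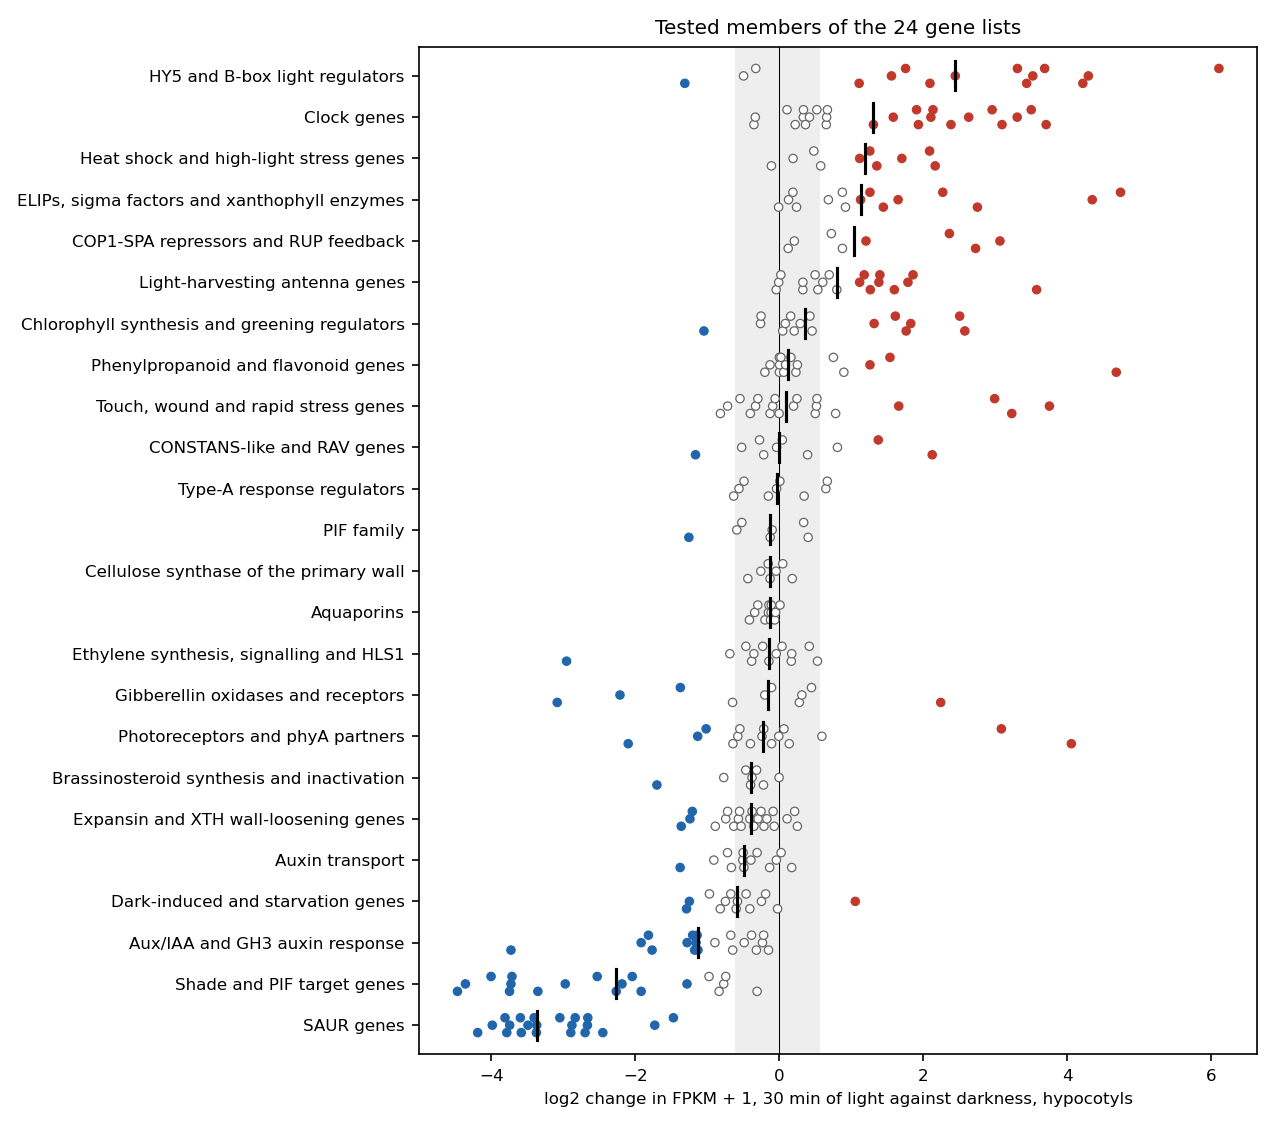
Each point is a tested member of a gene list (rows), placed on the x axis by its log2 change in FPKM + 1 after 30 min of light against darkness in hypocotyls. Filled red or blue points rose or fell, open points were not called, black bars are list medians and the grey band spans the 5th to 95th percentile of all tested genes (-0.62 to 0.56). The SAUR, shade, Aux/IAA and GH3, and brassinosteroid lists lie wholly below 0, and the list of HY5 and B-box genes has 12 of 15 members in red.

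Transcription factors that carry the light signal rose together. In the list of HY5 and B-box genes, 12 of 15 rose and 1 fell, with a median of 2.44, against 1.76% of all genes higher and 1.84% lower. HY5 itself (AT5G11260, chromosome 5, 3593335 to 3595073, minus strand, TAIR10.1), the main bZIP activator of light-grown development, was at 21.9 and 21.9 FPKM in darkness and 276 and 248.7 FPKM after 30 min (log2 change 3.52, SE 0.1102, adjusted p = 5.71e-15). Its homologue HYH was at 1.37 and 0.526 FPKM in darkness and 24.7 and 22.3 FPKM after 30 min (log2 change 3.69, SE 0.256, adjusted p = 5.99e-09). BBX32, a B-box protein that restrains light responses, was at 0.0867 and 0 FPKM in darkness and 17.6 and 19.2 after 30 min (log2 change 4.22, SE 0.152, adjusted p = 3.19e-14). BBX24 and BBX25, a related pair of B-box regulators, were at 43.5 and 36.4 FPKM in darkness and 454 and 427 FPKM after 30 min and at 0.198 and 0.0884 FPKM in darkness and 9.31 and 11.4 FPKM after 30 min. The dark libraries of every one of these genes were below their 30 min libraries. The member that fell was BBX20, at 17.1 and 23.1 FPKM in darkness and 8.18 and 6.69 FPKM after 30 min (log2 change -1.31, SE 0.177, adjusted p = 1.49e-05). BBX21 was at 304 and 294 FPKM in darkness and 198 and 225 FPKM after 30 min and did not reach the limit on the change (log2 change -0.497), and BBX23 was at 0.576 and 0 FPKM in darkness and listed at 0 after 30 min, too low to compare in this tissue.

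Genes that restrain light signalling also rose. In the list of COP1, SPA and RUP genes 4 of 8 rose and 0 fell (median 1.04). RUP1, which switches off the UV-B receptor UVR8, was at 13.8 and 11.3 FPKM in darkness and 108 and 115 FPKM after 30 min (log2 change 3.06, SE 0.143, adjusted p = 2.09e-12). SPA1, a subunit of the COP1 ligase, was at 8.77 and 9.58 FPKM in darkness and 71.3 and 61.6 FPKM after 30 min (log2 change 2.73, SE 0.147, adjusted p = 2.15e-11). RUP2 (log2 change 2.36) and SPA3 (1.203) were the others. COP1 was at 12.7 and 11.2 FPKM in darkness and 20.6 and 20.1 FPKM after 30 min, below the limit on the change (log2 change 0.72, SE 0.108, adjusted p = 5.54e-05), and SPA4 likewise at 5.75 and 5.44 FPKM in darkness and 12.3 and 9.99 FPKM after 30 min (log2 change 0.88). The 30 min libraries lay above the dark libraries in all of these 6 genes.

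Among 16 photoreceptor and receptor-partner genes, 2 rose and 3 fell (median -0.23). The receptor genes themselves were not called. PHYA, the phytochrome that prevails in darkness, was at 346 and 319 FPKM in darkness and 218 and 206 FPKM after 30 min (log2 change -0.65, SE 0.124, adjusted p = 8.69e-04), a drop too small for the limit. PHYB was at 34.8 and 34.5 FPKM in darkness and 30.3 and 28.05 FPKM after 30 min, CRY1 at 63.5 and 60.6 FPKM in darkness and 46.6 and 46.8 FPKM after 30 min and PHOT1 at 324 and 251 FPKM in darkness and 207 and 176 FPKM after 30 min. For these 4 receptors both light libraries lay under both dark libraries. With 2 libraries in a group, such separation in either direction can occur without a call. It was found in 15 of the 16 genes of this list and in 7 of 12 aquaporin genes, none of which was called. The share over all genes tested was not counted, so that the separation of these 4 receptors is a description only. The changes called were in partners. RPT2 is given above, and PKS1, a phytochrome kinase substrate that acts in phototropism, was at 27.2 and 31.3 FPKM in darkness and 281 and 231 FPKM after 30 min (log2 change 3.08, SE 0.172, adjusted p = 3.53e-11). PKS4, its relative, was at 27.5 and 29.02 FPKM in darkness and 6.89 and 4.89 FPKM after 30 min (log2 change -2.101, SE 0.192, adjusted p = 7.01e-08), so that these homologues went in opposite directions. FHY1 and FHL, which carry phytochrome A into the nucleus, were at 65.3 and 63.03 FPKM in darkness and 27.3 and 30.1 FPKM after 30 min (log2 change -1.14) and at 43.4 and 47.8 FPKM in darkness and 24.8 and 19.5 FPKM after 30 min (log2 change -1.02).

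Many targets of PIF factors fell, and of the PIF genes themselves 1 was called. Of the 7 PIF genes 1 fell and 0 rose (median -0.13). PIF4 was at 16.3 and 17.9 FPKM in darkness and 15.9 and 15.2 FPKM after 30 min (log2 change -0.13) and PIF5 at 14.9 and 15.97 FPKM in darkness and 13.9 and 14.8 FPKM after 30 min (-0.100). PIF3 was at 45.9 and 51.4 FPKM in darkness and 30.8 and 33.001 FPKM after 30 min, under the limit (log2 change -0.59, SE 0.0968, adjusted p = 1.59e-04). The member called was PIF6, at 7.43 and 11.6 FPKM in darkness and 3.65 and 3.0004 FPKM after 30 min (log2 change -1.26), which overlaps another gene over 88.9% of its exons and was not called without dark replicate B (-0.97). In the list of shade and PIF targets 14 of 19 tested members fell and 0 rose (20 in the list, median -2.27). Beside ATHB2, PIL1 and ATHB4, its 4 largest falls held PRE1. IAA29, an auxin response repressor, was at 81.5 and 76.7 FPKM in darkness and 4.55 and 5.56 FPKM after 30 min, and HAT3, another homeodomain gene of the family of ATHB2, at 25.7 and 23.9 FPKM in darkness and 1.08 and 0.848 FPKM after 30 min. YUC8, an enzyme of auxin synthesis, was at 23.4 and 19.7 FPKM in darkness and 8.38 and 8.07 FPKM after 30 min (log2 change -1.28, SE 0.181, adjusted p = 2.64e-05). The shade gene HFR1 was at 129 and 121 FPKM in darkness and 98.9 and 102 FPKM after 30 min and was not called (log2 change -0.31, adjusted p = 0.0506).

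Auxin response genes also fell, with a smaller median change. Of 19 tested Aux/IAA and GH3 genes (20 in the list), 10 fell and 0 rose, with a median of -1.13. IAA19 and IAA29 belong to this list and to that of shade and PIF targets, and are counted in both throughout. IAA29, given above, had the largest fall of this list (log2 change -3.73). IAA19, a repressor that auxin itself induces and that is strongly expressed in growing hypocotyls, was at 567 and 583 FPKM in darkness and 156 and 147 FPKM after 30 min (log2 change -1.92, SE 0.191, adjusted p = 2.54e-07). IAA6 was at 88.2 and 93.03 FPKM in darkness and 24.1 and 27.7 FPKM after 30 min (log2 change -1.77). GH3.2, which conjugates auxin to amino acids, was at 11.5 and 10.6 FPKM in darkness and 2.59 and 2.23 FPKM after 30 min (log2 change -1.82). In each of these genes the higher 30 min library was under the lower dark library by more than the spread of either pair. IAA7 and IAA17, the most abundant members, were at 1347 and 1359 FPKM in darkness and 1181 and 1144 FPKM after 30 min and at 868 and 875 FPKM in darkness and 784 and 786 FPKM after 30 min and were not called. Of 13 auxin transport genes only WAG2, a kinase that acts on PIN carriers, was called, at 51.3 and 65.2 FPKM in darkness and 19.4 and 24.1 FPKM after 30 min (log2 change -1.38, SE 0.164, adjusted p = 2.92e-06). PIN3, a carrier of tropic growth, was at 137 and 143 FPKM in darkness and 83.9 and 84.9 FPKM after 30 min (log2 change -0.72, under the limit).

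All 21 tested SAUR genes of the list fell (22 in the list, 0 rose), with a median of -3.37 and a range from -4.19 to -1.47. SAUR proteins are known to activate plasma membrane proton pumps and so to loosen walls. SAUR19, the best studied of them in hypocotyls, was at 149 and 171 FPKM in darkness and 12.6 and 12.2 FPKM after 30 min (log2 change -3.59, SE 0.292, adjusted p = 2.70e-08). SAUR22 had the largest change of the list (log2 change -4.19, SE 0.3901, adjusted p = 5.33e-07). SAUR10 was at 81.6 and 71.8 FPKM in darkness and 3.94 and 3.83 FPKM after 30 min (log2 change -3.99, SE 0.487, adjusted p = 1.77e-05) and SAUR9 at 35.8 and 43.3 FPKM in darkness and 1.72 and 2.03 FPKM after 30 min (log2 change -3.81, SE 0.152, adjusted p = 1.57e-13). The dark libraries of all 21 lay above the 30 min libraries. The smallest change of the list was in SAUR14, at 50.7 and 59.9 FPKM in darkness and 19.1 and 19.3 FPKM after 30 min (log2 change -1.47, SE 0.175, adjusted p = 2.80e-06). SAUR genes lie in clusters of close copies, and up to 29.3% of the 50-nt stretches of a tested member (SAUR63) also occur in another gene, which makes levels of single members such as SAUR62 (23.2%), SAUR67 (25.1%) and SAUR19 (18.5%) uncertain.

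**Figure D3:**
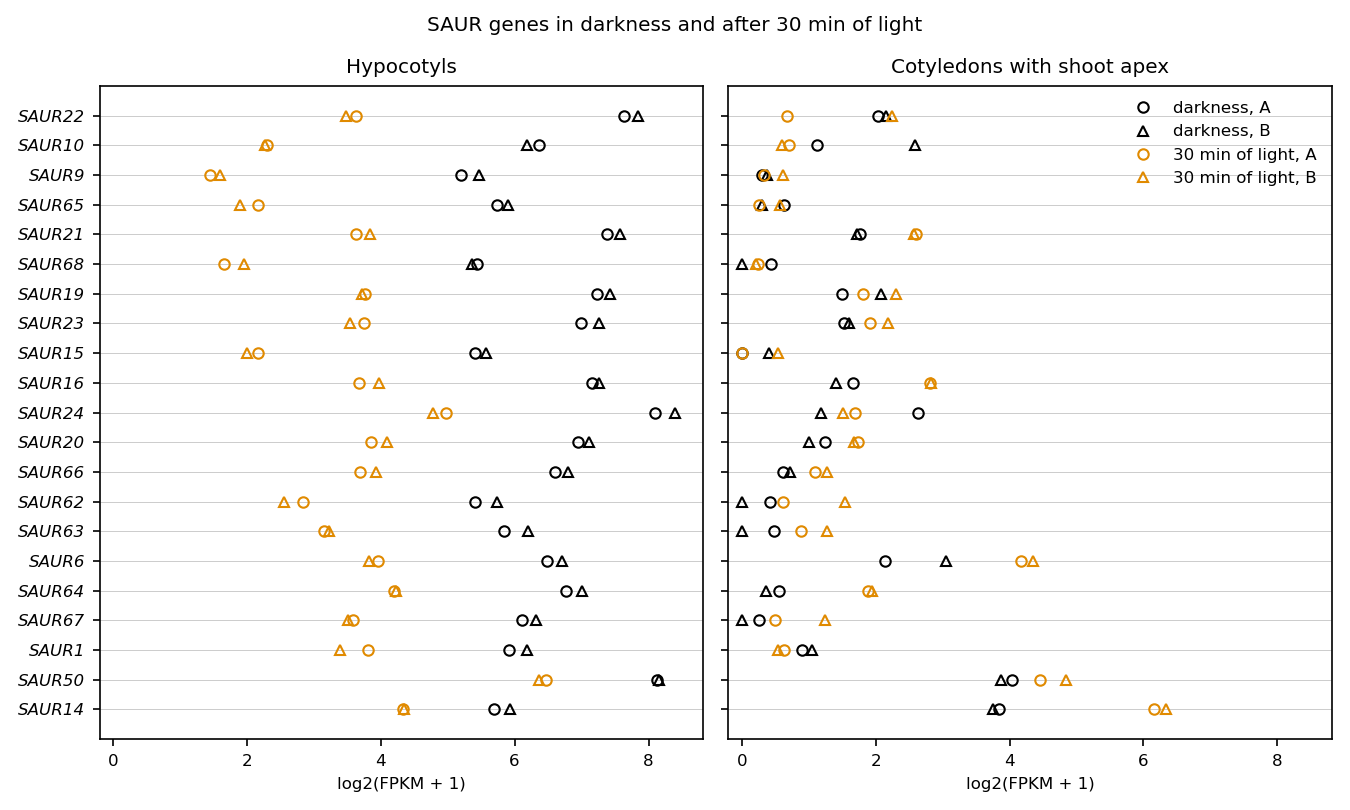
Rows are the 21 tested SAUR genes, ordered by their change in hypocotyls, and the x axis is log2(FPKM + 1) in hypocotyls (left) and in cotyledons with the shoot apex (right). Black symbols are dark libraries and orange symbols 30 min libraries, with circles for replicate A and triangles for replicate B. In hypocotyls every orange symbol lies left of the black ones, while in cotyledons most genes are low and SAUR14 and SAUR6 lie further right after 30 min.

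Among genes that act on the wall or move water, the calls were in one list. Of 22 tested expansin and XTH genes (24 in the list) 3 fell and 0 rose, against 1.84% of all genes lower (median -0.395). XTH30, a wall xyloglucan enzyme, was at 782 and 728 FPKM in darkness and 257 and 333 FPKM after 30 min (log2 change -1.36, SE 0.192, adjusted p = 3.07e-05). XTH33 was at 61.2 and 60.2 FPKM in darkness and 25.4 and 25.95 FPKM after 30 min (log2 change -1.21), a call that ended with a pseudocount of 0.1 FPKM (-1.24), and XTH23 at 76.6 and 66.5 FPKM in darkness and 30.4 and 28.8 FPKM after 30 min (log2 change -1.24), a call that ended without 30 min replicate B (-1.2), without dark replicate A (-1.14) or with a pseudocount of 0.1 FPKM (-1.27). XTH4, the most abundant of them, was at 4024 and 3907 FPKM in darkness and 3080.5 and 3585 FPKM after 30 min and was not called. None of the 7 genes of primary wall cellulose synthesis and none of the 12 aquaporin genes was called in either direction (medians -0.13 and -0.13). With 3.6% of all genes called, no call in lists this short is close to that share. CESA1, a catalytic subunit, was at 229.9 and 209.8 FPKM in darkness and 224 and 229.8 FPKM after 30 min, and TIP1;2, a vacuolar water channel, at 9587 and 9219.7 FPKM in darkness and 7933 and 9395 FPKM after 30 min. At an adjusted p under 0.05 alone, with no limit on the change, CESA6 was lower (log2 change -0.44, adjusted p = 0.00556).

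In the gibberellin list, genes of synthesis fell and one of inactivation rose, 3 and 1 of 10 (median -0.16). GA20OX1 and GA3OX1 catalyse the last steps to active gibberellin. GA20OX1 was at 35.4 and 34.4 FPKM in darkness and 2.901 and 3.57 FPKM after 30 min (log2 change -3.09, SE 0.171, adjusted p = 3.22e-11). GA3OX1 was at 62.7 and 70.05 FPKM in darkness and 15.6 and 11.6 FPKM after 30 min (log2 change -2.21, SE 0.238, adjusted p = 9.42e-07). GA20OX2, at lower level, was at 2.74 and 4.29 FPKM in darkness and 0.9704 and 0.4905 FPKM after 30 min (log2 change -1.38). GA2OX1, which inactivates gibberellin, was at 1.78 and 1.76 FPKM in darkness and 12.5 and 11.7 FPKM after 30 min (log2 change 2.24, SE 0.193, adjusted p = 2.88e-08). In GA20OX1, GA3OX1 and GA2OX1 the groups were far apart. In GA20OX2 they did not overlap, but its levels were low and its dark replicates differed. The GID1 receptor genes were not called.

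Other hormone lists held few calls. In the brassinosteroid list BAS1, which inactivates the hormone, fell, 1 of 8, at 55.2 and 50.6 FPKM in darkness and 14.4 and 16.8 FPKM after 30 min (log2 change -1.702, SE 0.134, adjusted p = 7.52e-09), and the synthesis gene DWF4 was at 117 and 112 FPKM in darkness and 89.7 and 83.7 FPKM after 30 min (log2 change -0.400). Among 13 tested ethylene genes (16 in the list) ACS5, an enzyme of ethylene synthesis, was the only call, at 48.3 and 47.8 FPKM in darkness and 5.23 and 5.42 FPKM after 30 min (log2 change -2.96, SE 0.158, adjusted p = 1.77e-11). None of 9 tested type-A response regulators, which report cytokinin signalling, was called (10 in the list). Over all genes tested 3.6% were called, so that 0 or 1 call in lists this short says little about a list. ACS5 had already been at 5.98 and 8.61 FPKM at 15 min (log2 change -0.37, SE 0.158, adjusted p = 0.286).

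Many clock genes rose. Of 25 clock genes 13 rose and 0 fell, with a median of 1.31. Morning genes were among them, with CCA1 at 3.898 and 4.93 FPKM in darkness and 44.7 and 45.3 FPKM after 30 min (log2 change 3.09, SE 0.195, adjusted p = 3.47e-10) and LHY at 12.6 and 13.5 FPKM in darkness and 38.3 and 44.1 FPKM after 30 min (log2 change 1.58, SE 0.309, adjusted p = 0.00176). PRR5, a repressor that normally follows later in the day, was at 1.15 and 1.35 FPKM in darkness and 28.8 and 27.9 FPKM after 30 min (log2 change 3.71, SE 0.169, adjusted p = 1.49e-12). LNK3, a coactivator of the clock, was at 6.101 and 6.504 FPKM in darkness and 69.6 and 72.6 FPKM after 30 min (log2 change 3.304, SE 0.104, adjusted p = 5.71e-15). Both 30 min libraries were above both dark libraries in all of these genes. RVE7 was at 3.57 and 3.75 FPKM in darkness and 55.8 and 47.8 FPKM after 30 min (log2 change 3.499), but 54.7% of its 50-nt stretches occur in another gene. PRR9 was at 0.188 and 0.202 FPKM in darkness and 4.98 and 5.4997 FPKM after 30 min and GI, a large nuclear protein of the clock, at 10.98 and 9.67 FPKM in darkness and 51.6 and 45.8 FPKM after 30 min. TOC1, an evening gene, was at 27.4 and 28.1 FPKM in darkness and 34.95 and 35.5 FPKM after 30 min (log2 change 0.33) and ELF3 at 34.8 and 33.6 FPKM in darkness and 41.8 and 38.3 FPKM after 30 min (0.22), neither of them called.

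Nuclear genes of plastid protection and of antenna assembly rose in part. In the list of ELIP, sigma factor and xanthophyll genes 8 of 15 rose and 0 fell (median 1.13). Beside ELIP1 and SIG5, PSBS, the sensor of photoprotective quenching, was at 9.51 and 10.8 FPKM in darkness and 72.2 and 75.6 FPKM after 30 min (log2 change 2.75, SE 0.133, adjusted p = 3.79e-12). ELIP2 was at 1.21 and 1.22 FPKM in darkness and 9.94 and 9.42 FPKM after 30 min (log2 change 2.27, SE 0.327, adjusted p = 9.96e-05). SIG2, another sigma factor, was at 8.61 and 8.37 FPKM in darkness and 9.48 and 9.25 FPKM after 30 min and was not called, nor were SIG1, SIG3 and SIG4. Of 19 light-harvesting antenna genes 9 rose and 0 fell (median 0.798). All 19 had lower means in hypocotyls than in cotyledons both in darkness and at 30 min. LHCA1, an antenna protein of photosystem I, was at 8.12 and 9.54 FPKM in darkness and 28.7 and 28.6 FPKM after 30 min (log2 change 1.597, SE 0.129, adjusted p = 1.16e-08). LHCB2.1 was at 0.135 and 0.363 FPKM in darkness and 2.79 and 4.36 FPKM after 30 min and LHCB1.1 at 0 and 0.419 FPKM in darkness and 2.94 and 3.29 FPKM after 30 min, where 23.5% and 20.5% of the 50-nt stretches occur in other genes. LHCB1.5 had the largest change of the list (3.57) but overlaps another gene over 100% of its exons, and LHCB1.3, the highest in darkness at 47.1 and 63.8 FPKM, stood at 59.5 and 79.9 after 30 min and was not called.

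Of 16 genes of chlorophyll synthesis and greening, 6 rose and 1 fell (median 0.36). GLK2, a transcription factor of chloroplast development, was at 18.3 and 18.5 FPKM in darkness and 119 and 111 FPKM after 30 min (log2 change 2.58, SE 0.131, adjusted p = 8.56e-12). CHLH, a subunit of magnesium chelatase at the entry to chlorophyll synthesis, was at 6.98 and 6.97 FPKM in darkness and 44.1 and 44.4 FPKM after 30 min (log2 change 2.505, SE 0.164, adjusted p = 4.11e-10). CAO, which makes chlorophyll b, was at 4.61 and 5.29 FPKM in darkness and 20.7 and 19.5 FPKM after 30 min (log2 change 1.83). GUN4, an activator of magnesium chelatase, was at 2.69 and 2.99 FPKM in darkness and 11.2 and 12.9 FPKM after 30 min, with an overlap of 73% of its exons. The member that fell was PORA, the protochlorophyllide reductase of etiolated tissue, at 9.02 and 12.1 FPKM in darkness and 3.75 and 5.48 FPKM after 30 min (log2 change -1.05, SE 0.204, adjusted p = 0.00113). HEMA1, which starts tetrapyrrole synthesis, was not called, at 16.8 and 15.9 FPKM in darkness and 20.5 and 19.8 FPKM after 30 min (log2 change 0.29).

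In the flavonoid list 3 of 16 rose and 0 fell, against 1.76% of all genes higher (median 0.12). Beside F3H, CHI, the enzyme after chalcone synthase, was at 1.75 and 4.04 FPKM in darkness and 8.49 and 11.3 FPKM after 30 min (log2 change 1.54, SE 0.255, adjusted p = 2.97e-04). FLS1, a flavonol synthase, was at 0.0541 and 0 FPKM in darkness and 1.66 and 1.27 FPKM after 30 min, with dark replicate B at 0, and its call ended without any 1 of the 4 libraries (1.14 to 1.37 on the log2 scale). CHS, the entry enzyme, was at 0 and 0.127 FPKM in darkness and 1.04 and 0.912 after 30 min and was not called (log2 change 0.896, SE 0.518, adjusted p = 0.400).

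Both stress lists held rises and no falls. Of 20 tested touch, wound and rapid stress genes (25 in the list) 4 rose and 0 fell (median 0.097), and those 4 encode stress transcription factors. CBF3, a cold response activator, was at 0.517 and 0.694 FPKM in darkness and 21.3 and 19.9 FPKM after 30 min (log2 change 3.75, SE 0.19002, adjusted p = 8.05e-12). CBF2 was at 0.656 and 1.21 FPKM in darkness and 12.8 and 15.8 FPKM after 30 min (log2 change 2.99, SE 0.216, adjusted p = 2.04e-09). DREB2A, which acts in drought and heat, was at 7.597 and 10.06 FPKM in darkness and 91.4 and 89.4 FPKM after 30 min (log2 change 3.23, SE 0.1402, adjusted p = 6.86e-13). ZAT12 was at 6.15 and 7.19 FPKM in darkness and 20.4 and 26.2 FPKM after 30 min (log2 change 1.66). In these genes both light libraries were well above the dark ones. In the list of heat shock and high-light genes 6 of 10 tested members rose and 0 fell (11 in the list, median 1.19). HSFA2, a heat shock factor, was at 0.9198 and 1.44 FPKM in darkness and 8.06 and 9.39 FPKM after 30 min (log2 change 2.16, SE 0.233, adjusted p = 7.18e-07), and HSP70 at 18.2 and 23.6 FPKM in darkness and 66.2 and 73.3 FPKM after 30 min (log2 change 1.701, SE 0.213, adjusted p = 8.12e-06). MBF1C, a coactivator of the heat response, was at 40.3 and 49.3 FPKM in darkness and 187 and 198 FPKM after 30 min (log2 change 2.09) and HSP101, a disaggregase, at 8.398 and 8.71 FPKM in darkness and 22.7 and 24.2 FPKM after 30 min (log2 change 1.35).

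The remaining lists moved both ways. Of 14 tested dark-induced and starvation genes (15 in the list) 1 rose and 2 fell (median -0.59). DIN10, a gene that sugar represses, was at 719 and 639 FPKM in darkness and 258 and 296 FPKM after 30 min (log2 change -1.29, SE 0.194, adjusted p = 6.40e-05). SEN1 was at 259.7 and 233 FPKM in darkness and 81.5 and 129 FPKM after 30 min (log2 change -1.25) and DIN9 at 2.51 and 2.53 FPKM in darkness and 6.99 and 5.69 FPKM after 30 min (log2 change 1.05), and both calls ended without 30 min replicate A (-0.92 and 0.93). Of 10 CONSTANS-like and RAV genes 2 rose and 1 fell (median 0.00). TEM2, a repressor of flowering, was at 21.9 and 25.4 FPKM in darkness and 58.7 and 66.9 FPKM after 30 min (log2 change 1.37, SE 0.137, adjusted p = 2.43e-07), and its relative RAV1 at 128 and 129 FPKM in darkness and 54.4 and 59.05 FPKM after 30 min (log2 change -1.17, SE 0.151, adjusted p = 9.00e-06). COL1 also rose (log2 change 2.12), with an overlap of 100% with another gene.

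The largest changes were also ranked over all classes of gene, a view taken after the values were seen. MIR163, the primary transcript of a microRNA, was at 2.43 and 2.87 FPKM in darkness and 109 and 112 FPKM after 30 min (log2 change 4.94, SE 0.2696, adjusted p = 2.70e-10). The chloroplast genes ATCG00690 and ATCG00700 were listed at 0 in both dark libraries and stood at 91.7 and 100.4 and at 15.4 and 44.8 FPKM after 30 min, while their 15 min libraries stood at 312 and 0 and 46.5 and 10.9. The chloroplast-encoded genes as a whole took 0.069% and 0.140% of the summed FPKM in the dark libraries and 0.289% and 0.182% at 30 min, and poly(A) libraries measure them poorly. The short genes AT1G28990 and AT3G50835 were at 195 and 261 and at 178 and 239 FPKM in darkness. Both were listed at 0 in both 30 min libraries. Their exons span only 72 and 73 nt, and at such a length very few reads can give a high FPKM. AT3G50835 stood at 0 and 186 FPKM at 15 min and at 140 and 225 at 1 h. The falls of these short genes are therefore uncertain. By class, the nuclear coding genes with 500 nt or more held 319 of the 329 rises and 327 of the 344 falls, shorter coding genes 3 and 10, nuclear genes without a coding sequence 5 and 7, and organelle genes 2 and 0.

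The response was still under way at 30 min. Between 15 and 30 min in hypocotyls 241 genes were called (1.29% of those tested), 185 of them higher (0.99%) and 56 lower (0.3%). SIG5 had the largest rise, from 1.43 and 0.594 FPKM at 15 min to 25.6 and 25.7 at 30 min (log2 change 3.76, SE 0.134, adjusted p = 4.83e-13). F3H went from 2.52 and 3.09 to 33.1 and 30.9 FPKM, BBX32 from 1.83 and 1.26 to 17.6 and 19.2 and AT5G15950 from 10.5 and 10.4 to 81.3 and 77.3. In these genes most of the 30 min level had thus appeared after 15 min. PRE1 had the largest fall, from 21.8 and 25.2 to 2.86 and 4.57 FPKM (log2 change -2.397, SE 0.242, adjusted p = 1.17e-06), and PRE6, a related gene, went from 106 and 131 to 23.01 and 26.3 (log2 change -2.22, SE 0.1401, adjusted p = 1.20e-09). AT5G39240, annotated as similar to the UPBEAT factor, went from 22.2 and 40.3 to 12.005 and 3.83 FPKM, but was not called with the 14 hypocotyl libraries only, nor without 15 min replicate B (-1.55) or 30 min replicate B (-1.25). AT5G09445, from 2.92 and 4.15 FPKM to under 0.001, overlaps another gene over 100% of its exons and was not called without any 1 of the 4 libraries (-2.36 to -1.97).

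The lists held the following counts at this step. Between 15 and 30 min, 11 of 15 HY5 and B-box genes, 12 of 25 clock genes, 4 of 8 COP1, SPA and RUP genes, 7 of 15 ELIP, sigma factor and xanthophyll genes and 5 of 19 antenna genes were higher. Of the SAUR genes 3 of 21 were lower, of the shade targets 8 of 19 and of the Aux/IAA and GH3 genes 3 of 19. The median log2 changes of these 3 lists at this step were -0.77, -0.97 and -0.23, against 0.00535 over all genes tested. SAUR22 had stood at 21.2 and 18.5 FPKM at 15 min, ATHB2 at 9.72 and 11.7 and PAR1 at 13.7 and 14.4, against 13.9 and 13.7 at 30 min for PAR1. The 15 min libraries of these 3 genes were far closer to the 30 min than to the dark libraries. The step from 15 to 30 min was not called in them (log2 changes -0.83, -0.95 and -0.02). ATHB2 missed only the limit on the change (adjusted p = 3.05e-04), whereas SAUR22 had an adjusted p of 0.393. IAA29 stood at 19.6 and 21.5 FPKM at 15 min and 4.55 and 5.56 at 30 min (log2 change -1.84, SE 0.189, adjusted p = 1.27e-06), and HSP70 and HSFA2, like the rest of the heat shock list (0 of 10 called), were not called at this step.

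From 30 min to 1 h, 485 genes were called (2.6%), 411 higher (2.2%) and 74 lower (0.396%). Antenna genes led among the lists, with 15 of 19 higher and 0 lower (median 1.64), followed by 11 of 15 in the list of ELIP, sigma factor and xanthophyll genes. LHCB1.1 stood at 24.9 and 33.8 FPKM at 1 h (log2 change 2.87, SE 0.238, adjusted p = 1.35e-07), and CHS at 7.97 and 8.84 (log2 change 2.25, SE 0.518, adjusted p = 0.00945). LHCB1.1 had risen at 30 min too, whereas CHS had not been called then. The largest rise from 30 min to 1 h was in MSRB6, a methionine sulfoxide reductase, from 13.6 and 12.7 to 137 and 113 FPKM (log2 change 3.15, SE 0.234, adjusted p = 3.60e-08). KIN2, a cold-induced gene, went from 9.06 and 9.21 to 86.6 and 78.4 FPKM, scpl10 from 0.548 and 0.3499 to 11.2 and 9.57 and AT3G57020 from 1.75 and 1.16 to 19.97 and 15.7. The largest falls were in CIB1 (overlap 100%), MIOX2, AT5G02540 and EBF2. EBF2, an F-box protein that degrades the ethylene factor EIN3, went from 71.3 and 90.09 to 24.6 and 19.8 FPKM (log2 change -1.81, SE 0.278, adjusted p = 2.05e-04), and MIOX2, which degrades inositol, from 128 and 119.8 to 34.9 and 27.7 (log2 change -1.96, SE 0.292, adjusted p = 1.67e-04). CIB1 went from 13.2 and 13.5 to 1.14 and 1.14 FPKM and AT5G02540 from 14.3 and 12.3 to 2.84 and 3.2003.

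Some genes turned back after 30 min. CBF3 went from 21.3 and 19.9 FPKM at 30 min to 5.63 and 7.07 at 1 h (log2 change -1.56, SE 0.19002, adjusted p = 7.21e-06), and CBF2 from 12.8 and 15.8 to 6.32 and 5.28 (log2 change -1.17, SE 0.216, adjusted p = 8.02e-04). HSFA2 went from 8.06 and 9.39 to 3.497 and 3.77 FPKM (log2 change -1.07, SE 0.233, adjusted p = 0.00355). In these stress factor genes the 1 h libraries all lay between the dark and the 30 min libraries. PRR5 stood at 13.1 and 14.5 FPKM at 1 h and RVE2 at 295 and 281, against 545 and 540.2 at 30 min, and their log2 changes of -0.99 and -0.91 were just under the limit. Among the genes that had fallen, 8 of 21 SAUR genes were higher at 1 h than at 30 min and 0 were lower. SAUR22 stood at 31.6 and 33.3 FPKM at 1 h (log2 change 1.52, SE 0.3901, adjusted p = 0.0165), still far under its dark level, and SAUR14 at 63.8 and 61.3 (log2 change 1.65, SE 0.175, adjusted p = 1.25e-06), above it. ATHB4 also turned, to 2.91 and 3.76 FPKM (log2 change 1.54, SE 0.1995, adjusted p = 1.51e-05). IAA19 kept falling, to 57.4 and 67.3 FPKM (log2 change -1.27, SE 0.191, adjusted p = 8.96e-05).

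**Figure D4:**
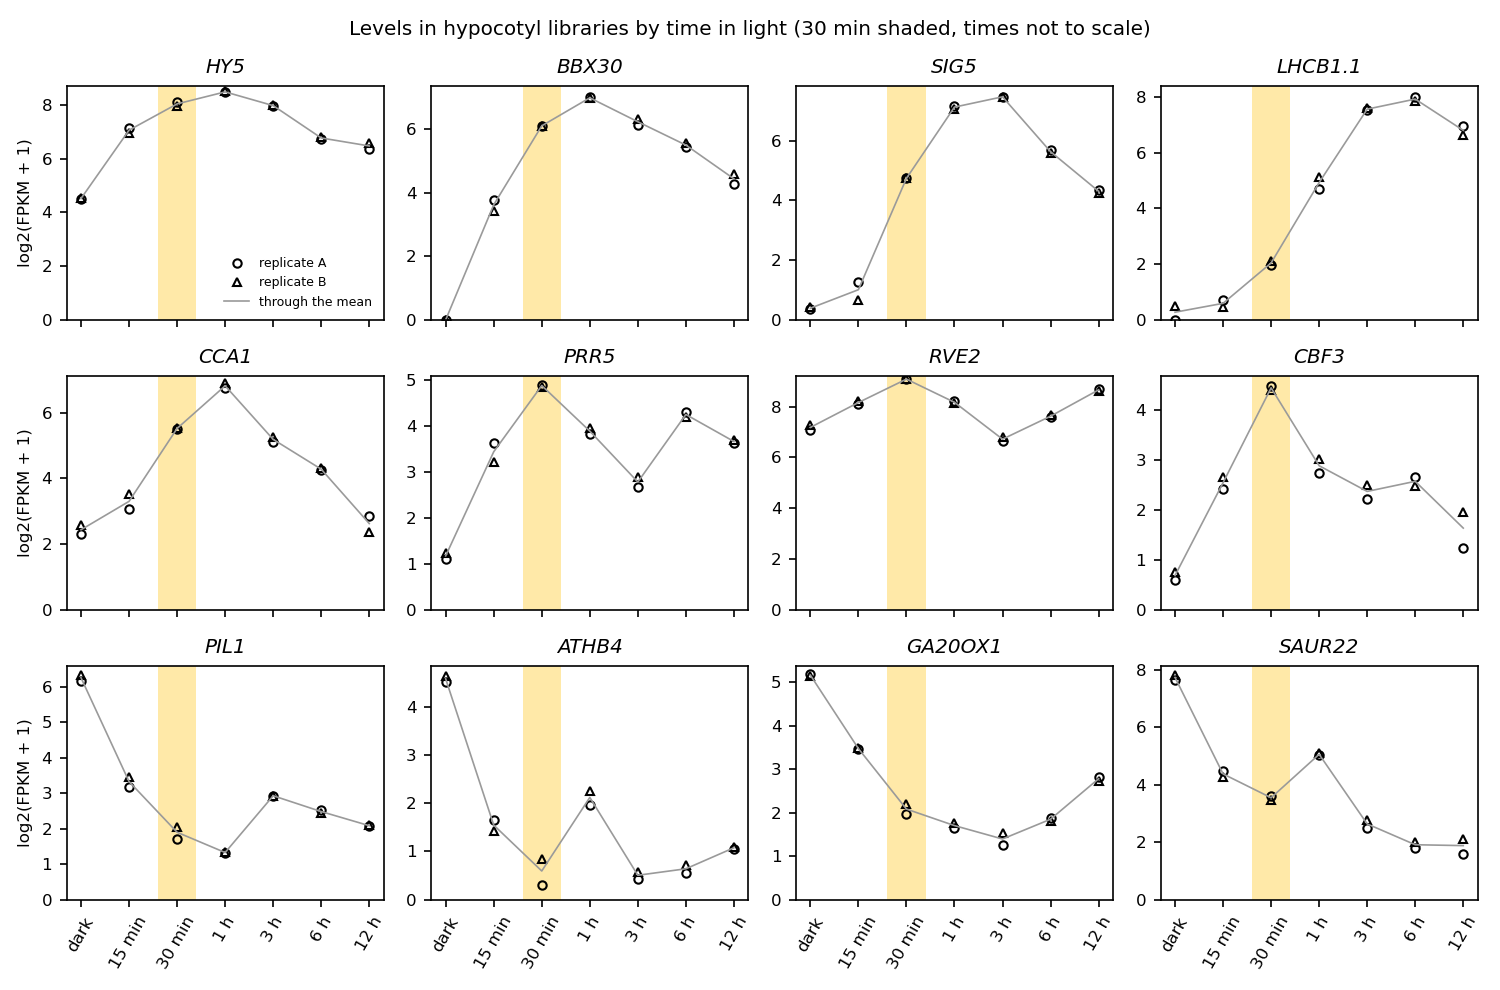
Each panel gives log2(FPKM + 1) of one gene in hypocotyl libraries in darkness and at the 6 times in light, with circles for replicate A, triangles for replicate B, a grey line through the means and 30 min shaded. SIG5 and CCA1 rose further from 30 min to 1 h, and HY5 and BBX30 had higher means at 1 h without a call. PRR5, RVE2 and CBF3 had their highest means at 30 min, and ATHB4 and SAUR22 were lower at 30 min than at 1 h.

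Cotyledons with the shoot apex were exposed to the same 30 min of light, and the change there was compared with that in hypocotyls by the difference between the changes. It was called in 450 genes (2.41% of those tested), in 215 (1.15%) toward a higher and in 235 (1.26%) toward a lower value in hypocotyls. All 21 tested SAUR genes of the list were in the lower set, and over the 60 tested genes with a SAUR-like product the numbers were 31 lower and 1 higher (AT3G61900, 2.14). SAUR16 had the largest difference, at 142 and 152 FPKM in darkness and 11.8 and 14.7 FPKM after 30 min in hypocotyls and 2.17 and 1.66 FPKM in dark and 6.04 and 6.11 in 30 min cotyledons (difference -4.66, SE 0.332, adjusted p = 3.28e-08). SAUR14 was at 13.3 and 12.4 FPKM in dark cotyledons and 70.4 and 79.8 after 30 min (difference -3.93, SE 0.247, adjusted p = 2.79e-09), where hypocotyls had gone from 50.7 and 59.9 to 19.1 and 19.3. For this gene, then, the tissues moved in opposite directions. SAUR21, SAUR6 and SAUR64 followed, with differences of -4.59, -4.36 and -4.13. Most SAUR genes were low in cotyledons, such as SAUR9 at 0.237 and 0.291 FPKM in darkness. For genes as low as SAUR9 a fall in cotyledons could hardly show, and the difference was mostly the fall in hypocotyls.

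Shade and auxin targets showed the same direction of difference. Of the shade and PIF targets 9 of 19 were lower in the hypocotyl comparison and 1 higher, and of the Aux/IAA and GH3 genes 9 of 19 were lower and 0 higher. IAA19 and IAA29 are among the lower genes of both lists. GA20OX1, of the gibberellin list, was at 0.223 and 0.363 FPKM in dark cotyledons and 0.0787 and 0.327 after 30 min (difference -2.98, SE 0.242, adjusted p = 9.34e-08). PRE1 was at 6.25 and 4.12 FPKM in dark cotyledons and 4.08 and 3.53 after 30 min (difference -3.41, SE 0.343, adjusted p = 1.70e-06). Both genes were thus lower in dark cotyledons than in dark hypocotyls. GA20OX1 was so low in dark cotyledons that a fall there could hardly show, and its difference was mostly its fall in hypocotyls. PIL1 was at 22.001 and 24.9 FPKM in dark cotyledons and 1.22 and 1.17 at 30 min, and ATHB2 at 32.2 and 29.6 and 1.31 and 2.41, with differences under the limit (-0.89 and -0.97).

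Toward a higher change in hypocotyls, BBX30 came first, with 0 and 0.304 FPKM in dark cotyledons and 7.63 and 7.01 after 30 min (difference 3.24, SE 0.479, adjusted p = 3.81e-04). CBF3 was at 0 in both dark cotyledon libraries and at 0.361 and 0.501 FPKM after 30 min (difference 3.24, SE 0.269, adjusted p = 1.17e-07). AT5G15950 was at 17.8 and 18.2 FPKM in dark cotyledons and 48.3 and 61.03 after 30 min (difference 3.08, SE 0.1802, adjusted p = 1.35e-09), and AT2G44130, the remaining one of the leading 4, overlaps another gene over 100% of its exons. HY5 was at 76.4 and 88.6 FPKM in dark cotyledons, well above dark hypocotyls, and at 250.5 and 254 after 30 min, close to hypocotyls at that time (difference 1.92, SE 0.156, adjusted p = 9.34e-08). HYH (2.44), PKS1 (2.43), PSBS (2.13) and RPT2 (1.91) also differed in this direction. TEM2 was at 85.7 and 88.1 FPKM in dark cotyledons and 25.8 and 30.3 after 30 min (difference 2.97, SE 0.194, adjusted p = 4.13e-09), and so went the other way from hypocotyls.

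Clock and antenna genes gave a different picture. In 5 of 25 clock genes the change was lower in hypocotyls and in 0 higher, LNK3 among them with 0.946 and 0.579 FPKM in dark cotyledons and 74.5 and 74.3 after 30 min (difference -2.12, SE 0.147, adjusted p = 9.53e-09). CCA1, at 5.63 and 5.704 FPKM in dark cotyledons and 46.6 and 63.1 after 30 min, had a difference of 0.04 (SE 0.276, adjusted p = 0.978), and SIG5 one of -0.29 (adjusted p = 0.544). Of the 19 antenna genes 1 was higher and 2 were lower. PIF5, not called in hypocotyls, was at 5.68 and 5.61 FPKM in dark cotyledons and 22.3 and 21.7 after 30 min (difference -1.89, SE 0.118, adjusted p = 2.55e-09).

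**Figure D5:**
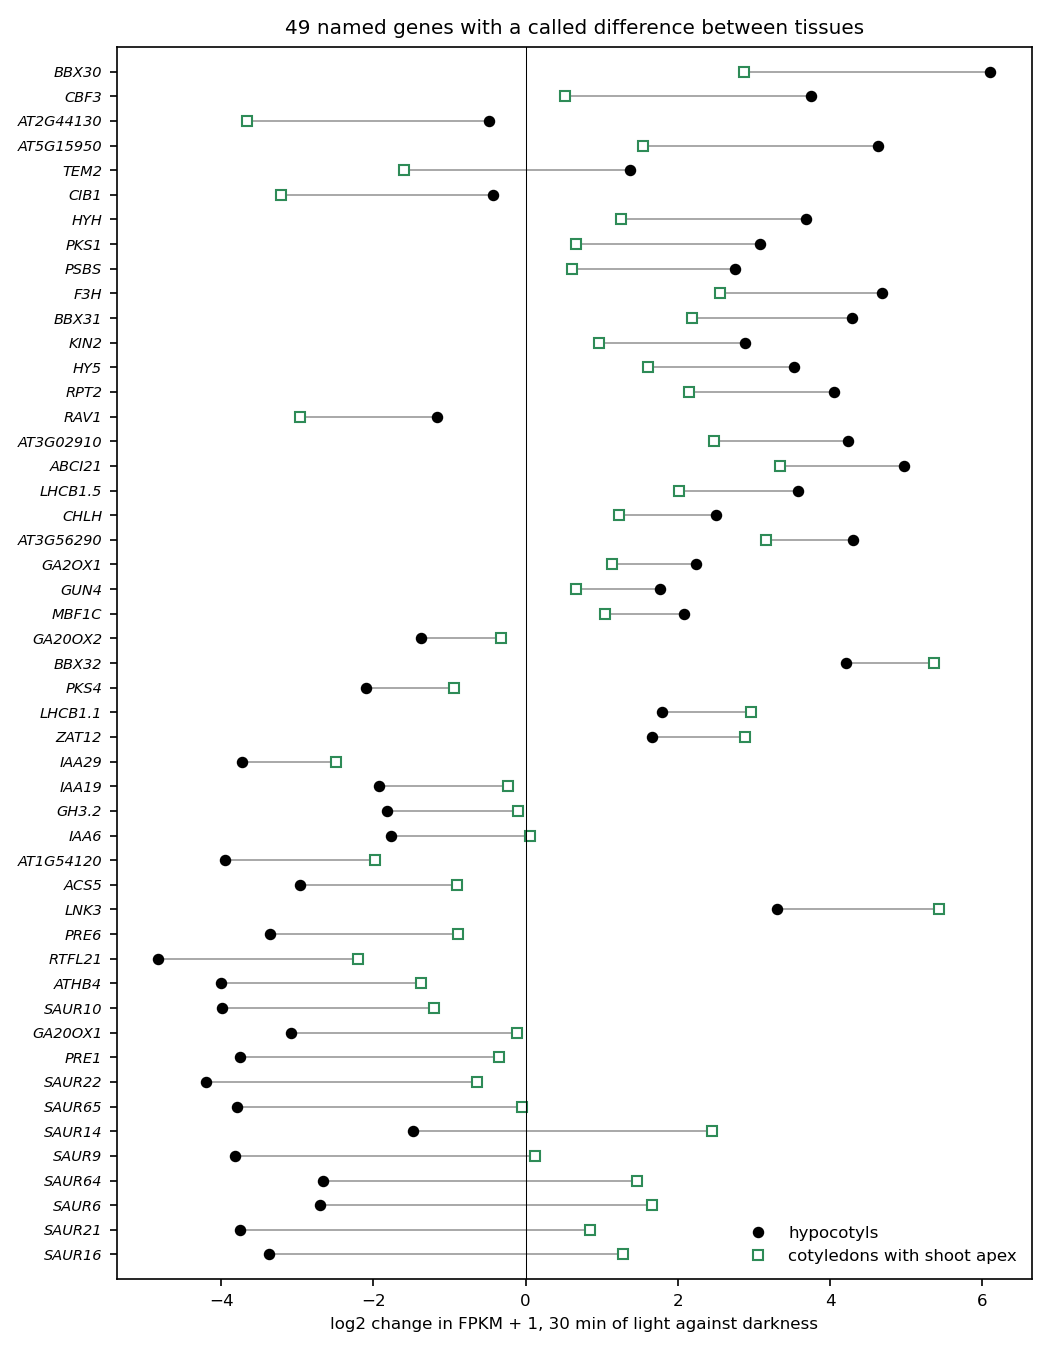
Rows are the 49 genes with a called difference between tissues among those named by the stated rules, without genes named after their values were seen. The x axis is the log2 change in FPKM + 1 after 30 min of light against darkness. Filled circles are hypocotyls and open squares cotyledons with the shoot apex, joined by a line. BBX30 heads the plot with a difference of 3.24, and SAUR16, SAUR21, SAUR6, SAUR64 and SAUR14 lie near the foot, with the tissues on opposite sides of 0.

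The authors' deposited table of Cuffdiff results covered 29764 genes, 15812 of them tested here. By the same limits on its q-value and log2 fold it called 684 genes for hypocotyls at 30 min, 356 higher and 328 lower. Of the 673 genes called with limma, 642 were in that table and 583 were called in it as well, all with the same sign (0 opposite). The rest of the 642 were not called there, and some of the 684 were called there only. Single genes were compared only where named by the stated rules and given a finite fold in that table. Among these, BBX32, KIN2, LHCB1.1, LHCB2.1 and FLS1 were called higher here and not there. AT5G02540 was called lower there (log2 fold -1.01) and not here. Both analyses compare the same 4 libraries.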

How the data were processed

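Libraries (poly(A) RNA, TruSeq v2 kit, titled stranded) were processed by the authors with CASAVA 1.8.2, TopHat2 2.0.8, Cuffdiff 2.1.1 and Cuffnorm, with build TAIR10, per the submitters' processing notes. Roles, scaling and use of strand are not stated in the sources used here. The deposited table holds the authors' FPKM, and their second table holds log2 fold changes and q-values from Cuffdiff, used only for comparison. No counts were analysed here. Depth was estimated from low FPKM values, of which 92.6% of 16735 lay within 0.1 of a whole number of reads (20% if spread evenly).

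The 18678 genes averaging 1 FPKM or more across the 28 libraries were fitted as log2(FPKM + 1) with limma 3.58.1 in R 4.3.3, with 14 group means (14 residual degrees of freedom) and eBayes with trend and robust estimation. Contrasts were 30 min against darkness, 30 min against 15 min, 1 h against 30 min, and the difference between tissues, each adjusted by Benjamini-Hochberg. The procedure was tested on simulated data. TAIR10.1 matched 32810 genes (747 unmatched) and gave positions, promoters and overlaps. Tables were made in Python 3.11.15 (numpy 2.4.6, pandas 2.3.3) and figures with matplotlib 3.10.9. No libraries were identical (0 pairs).

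Genes named were the 12 highest and 12 lowest at 30 min and the 4 and 4 of each other contrast (nuclear coding, 500 nt or more of exons), the called members with the largest changes in each list (4 at most), and HY5, BBX32, ELIP1, SIG5, LHY, PIL1, ATHB2, IAA19, PHYA, CHS and SAUR14. Others were named after their values were seen. Members and lists were chosen with earlier results of these data known. Alternatives tried were a pseudocount of 0.1 FPKM, a stricter filter, no filter, quantile normalization, other sample sets, a plain eBayes, a replicate block, each library left out, and, added after seeing the data, nuclear coding genes with long exons only (500 nt or more).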

Additional observations from a re-analysis of the deposited data

Results flagged for a closer look

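Among genes named by the ranking, list and fixed-set rules given above, the log2 change at 30 min differed between tissues in 49. The call was by limma's test of the difference itself (hypocotyls minus cotyledons, adjusted p under 0.05 and a difference of at least 1). Genes named outside those rules, such as PIF5 and AT3G61900, are not among the 49. The change was higher in hypocotyls for the regulators of light signalling BBX30 (3.24), CIB1 (2.79), HYH (2.44), PKS1 (2.43), BBX31 (2.11), HY5 (1.92) and RPT2 (1.91), and for the RAV genes TEM2 (2.97) and RAV1 (1.8). It was also higher for the plastid, flavonoid and transport genes F3H (2.13), PSBS (2.13), ABCI21 (1.63), LHCB1.5 (1.56), CHLH (1.27) and GUN4 (1.1), for the stress and hormone genes CBF3 (3.24), KIN2 (1.92), GA2OX1 (1.11) and MBF1C (1.05), and for AT2G44130 (3.18), AT5G15950 (3.08), AT3G02910 (1.76) and AT3G56290 (1.14). CIB1, RAV1 and AT2G44130 fell in cotyledons (log2 changes -3.22, -2.96 and -3.66), while in hypocotyls RAV1 fell and the other two were not called.

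The change was lower in hypocotyls for the SAUR genes SAUR16 (-4.66), SAUR21 (-4.59), SAUR6 (-4.36), SAUR64 (-4.13), SAUR9 (-3.94), SAUR14 (-3.93), SAUR65 (-3.74), SAUR22 (-3.56) and SAUR10 (-2.78). It was lower for the shade and auxin targets PRE1 (-3.41), ATHB4 (-2.63), PRE6 (-2.47), IAA6 (-1.83), GH3.2 (-1.72), IAA19 (-1.69) and IAA29 (-1.24) and for GA20OX1 (-2.98), RTFL21 (-2.62), ACS5 (-2.06), AT1G54120 (-1.97) and GA20OX2 (-1.06). It was lower too for LNK3 (-2.12), ZAT12 (-1.23), LHCB1.1 (-1.18), PKS4 (-1.16) and BBX32 (-1.14), of which BBX32, LNK3, LHCB1.1 and ZAT12 rose in hypocotyls and PKS4 fell there. F3H, AT3G02910, LHCB1.5, CIB1, GUN4 and AT2G44130 overlap another gene over most of their exons, and AT2G44130 was not called with a pseudocount of 0.1 FPKM (4.81).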

How the results depend on the processing

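The counts of called genes stayed within 1.5 times their value under every alternative run, with 1 exception: between 15 and 30 min the number lower was 37 with a mean of at least 5 FPKM, against 56. For 30 min against darkness, leaving out each library in turn gave 679 to 692 genes, a pseudocount of 0.1 FPKM gave 470 higher and 372 lower, and a replicate block gave 672 (329 higher and 343 lower). The sample titles do not say if the letters A and B pair samples across groups. The difference A minus B had a correlation of 0.0753 across genes between the dark and 30 min groups. Between 4 other pairs of groups it ran from -0.0669 to 0.0264. Low values over all genes cannot exclude a shared batch with a small effect, so that pairing remains unknown. Of 1672 values of single genes under alternatives, 1633 kept their side of the limits, 31 lost a call, 8 gained one and 0 changed sign. The lost calls fell on 16 results, with RTFL18, FLS1, XTH23, MIOX2, AT5G09445 and AT5G39240 among them, and the causes were not tested. MIOX2 at 30 min against darkness was one of them (-1.16 to -0.99 without one or other library). CHS gained a call with a pseudocount of 0.1 FPKM (2.84). Genes at a few FPKM rest on few reads, and each group holds 2 libraries.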
